A study of Mus musculus with 4 samples.

Results

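The centrosomal protein (Cep) genes examined here are the protein-coding genes of the mouse whose symbol is Cep followed by a number, with 1 such gene left out by the rule. There were 35 of them among 21938 protein-coding genes, and the other 21903 served for comparison. The rule uses names and no measured value, but the family was picked for description with earlier results of these data known. Binding of the transcription factor RFX2 to their promoters was read from ChIP-seq peak lists of decapsulated testis from mice of wild type (WT) genotype, with a mixed C57BL/6|129/Sv|FVB/N background and labelled as postnatal day 29 to 30. RFX2 was precipitated with 1 antibody in 2 replicates, each with its own input, and no ChIP from mice without RFX2 was analysed here. The study's text describes its ChIP as done on dissociated germ cells of younger mice, and the lists do not settle which description applies to them. Peaks give the sum over the cells of whichever preparation was used, and neither the cell type in which a Cep promoter was bound nor the transcription of a Cep gene was measured.

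There were 3 peak lists. The lists of replicates 1 and 2 held 39825 and 21274 peaks with 1 score each on a −log10 scale, of median 4.47 and 5.06. A shorter combined list held 2726 peaks, each with −log10 p (43.2 to 493), fold enrichment over the local background (2.85 to 70.5) and a summit, the base of highest signal. The combined list shares reads with the replicates, and its overlap with them is no independent repeat. Read totals per library were not given, so the depth behind a score is unknown. A gene was counted as bound at its promoter where a peak met by at least 1 bp the stretch from 1000 bp upstream to 500 bp downstream of any of its transcription start sites (TSSs).

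Cep proteins are parts of the centrosome, the microtubule-organising centre built around a pair of centrioles, and were mostly named after mass and not after function. Some build the centriole, others form the appendages by which the older centriole is anchored to a membrane, and others act in the cilium that grows from it once it has become a basal body. In a spermatid the distal centriole takes the place of the basal body and the axoneme of the flagellum grows from it. RFX factors bind the X-box, an imperfect palindrome of 2 arms, and are known regulators of ciliary genes in many animals.

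The X-box was taken from these data as the 14 bp palindrome GTTGCCATGGCAAC. It was built from ATGGCAAC, the word of 8 letters most raised near summits of combined peaks outside Cep promoters (40.6% of 2715 peaks and 0.608% of 5430 flanking windows, either strand). The sites below are those nearest in letters to the palindrome within 200 bp around the summits of combined peaks at Cep promoters, and they are shown because they lie under the binding described in the rest of the text. Capitals mark the 14 bp compared with the palindrome, the letters around them are context, and each site is written 5′ to 3′ on the strand of its gene, from the GRCm38 genome. Substitutions are given with the palindrome's base first and are numbered from 1 at the 5′ end of the capitals.
Cep112 (chr11:108425182-108425195, T3C): cccggagcGTCGCCATGGCAACagagttga
Cep295nl (chr11:118342557-118342570, G4C): gctctgctGTTCCCATGGCAACagcctccc
Cep162 (chr9:87255311-87255324, A7C and G10A): aggggtctGTTGCCCTGACAACagcccgct
Cep19 (chr16:32099811-32099824, A7T and C11G): agccttctGTTGCCTTGGGAACgatcctcg
Cep128 (chr12:91384371-91384384, G9A, A12T and A13G): tagttcaaGTTGCCATAGCTGCaagtcccg
Cep57l1, internal TSS (chr10:41746704-41746717, C5T, A12G and C14T): caaatgagGTTGTCATGGCGATagctgagg
Cep112, internal TSS (chr11:108587077-108587090, T3A, C5T and C6T): aatcctttGTAGTTATGGCAACtgagaact

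The first 2 sites differed from the palindrome at 1 position, the next 2 at 2 positions and the last 3 at 3 positions. All substitutions of the Cep112 internal site fell in its left arm, and those of Cep19 lay on both sides of the centre. No Cep peak held the exact palindrome, which 16 of 992 other promoter peaks (1.61%) did.

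The peaks at the promoters of Cep41, Cep89 and Cep170 had no site with 3 or fewer mismatches near the summit. In a search added after the data were seen, the arms GTTGCC and GGCAAC were allowed to stand 1, 2 or 3 bp apart with at most 2 mismatches over both arms. It found the following sites, both with a spacer of 3 bp, 1 bp longer than in the palindrome. Capitals mark the 2 arms and lower-case letters between them the spacer. Substitutions are numbered from 1 at the 5′ end of the left arm, with the bases of the spacer counted.
Cep41 (chr6:30693866-30693880, no mismatch): tcccgcGTTGCCcttGGCAACcattga
Cep89 (chr7:35396969-35396983, C5T and G10A): tgctggGTTGTCaagAGCAACgggtgg

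Cep41, with both arms exact and 1 extra base between them, counted 4 mismatches against the palindrome of fixed spacing. Farther from the summit, 529 bp upstream, the same Cep41 peak also held a site of fixed spacing with 2 mismatches. At Cep170 neither search met its limit, and the closest pair of arms had 3 mismatches. With spacers of 1 to 3 bp, 7 of 11 Cep peaks (63.6%) and 634 of 992 other promoter peaks (63.9%) held a site, and so did the flanking windows of 1 of 11 (9.09%) and 16 of 992 (1.61%). The spacer of 3 bp was found in 2 of those 7 Cep peaks and in 50 of the 634 others (7.89%).

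RFX2 peaks lay at the promoters of 10 Cep genes in the combined list, which is 28.6% (exact 95% binomial interval 14.6 to 46.3%, counting error only) beside 5.22% of the other protein-coding genes, a ratio of 5.48. In the replicate 1 list 15 Cep genes had a promoter peak (42.9% beside 13.9% of other genes), and in the replicate 2 list 14 had one (40.0% beside 11.2%). Both replicate lists held a promoter peak for 13 Cep genes (37.1% beside 9.0%), not always at the same TSS. With the replicate peaks required to overlap each other there were 12, beside 8.73% of other genes. The share was above that of the other genes in each list, and the lists differ in length, which moves both shares together. With the lists of replicates 1 and 2 cut by score to the 2726 peaks of the combined list, the shares were 25.7% and 31.4%, beside 4.99% and 5.56% of other genes.

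Cep genes offered more sequence in which a peak could fall, with a median of 6 annotated TSSs and 6027 bp of promoter per gene beside 3 TSSs and 3002 bp in the other genes. Counted at the 5′-most TSS only, which gives each gene the same length, the share was 25.7% for Cep genes and 4.40% for others, a ratio of 5.85. The gene lost in that count was Cep57l1.

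**Figure D1:**
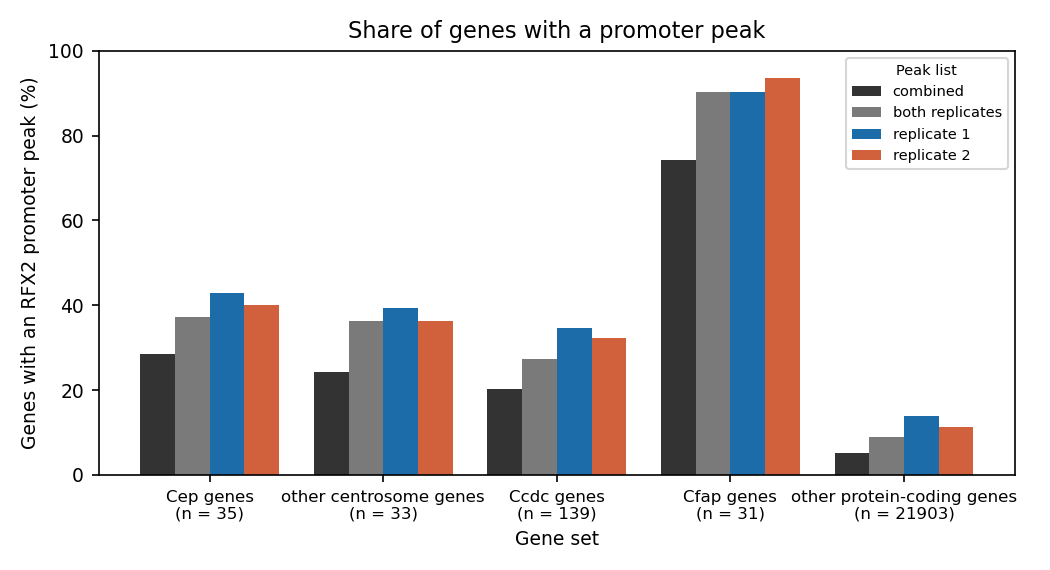
Share of genes (%) with an RFX2 promoter peak, by gene set and peak list, with the number of genes in each set below its name. Cep genes stand at 28.6% in the combined list and 42.9% in replicate 1, above the other protein-coding genes (5.22% and 13.9%) and below the Cfap genes (74.2% and 90.3%).

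Other gene sets of the same organelles are given for scale. Among 33 centrosome genes without a Cep name, 8 had a combined promoter peak (24.2%) and 12 had one in both replicates (36.4%). These 8 were Nek2, a kinase of centrosome separation (−log10 p 213), the centrin gene Cetn2 (167), Cenpj, a factor of centriole elongation (157), Spice1 (136), Cby1 (114), the appendage gene Odf2 (58.5), Ccp110, whose product caps centrioles (56.2), and the distal appendage gene Fbf1 (51.0). In at least 1 list, 13 of the 33 (39.4%) had a promoter peak, beside 16.2% of the other protein-coding genes, and 20 had none. Of 139 genes with Ccdc symbols, 28 (20.1%) had a combined promoter peak, and of 31 genes with Cfap symbols, named for cilia and flagella, 23 (74.2%) had one. The exact 95% interval of the Cep share overlapped those of the centrosome genes (11.1 to 42.3%) and the Ccdc genes (13.8 to 27.8%), and lay below that of the Cfap genes (55.4 to 88.1%). These differences were not tested.

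The genes of appendages and microtubule anchoring held 4 of the 10 bound Cep promoters. Cep19 encodes a protein of the mother centriole that recruits a GTPase for the start of ciliogenesis, and its peak at chr16:32099544-32100506 had −log10 p 183 and an 11.9-fold enrichment, with scores of 136 in replicate 1 and 93.2 in replicate 2. The summit lay 20 bp downstream of the TSS, in an exon of the 5′ untranslated region. Cep89, a distal appendage gene, had −log10 p 139 and a 25.6-fold enrichment at chr7:35396420-35397420, and its scores were 77.7 and 55.5. That summit was upstream of the TSS, by 69 bp. The peak of Cep19 thus had the higher score in all 3 lists, while the enrichment was higher at Cep89.

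Cep170 and Cep128 encode subdistal appendage proteins. The peak of Cep170 (chr1:176814305-176815254) had −log10 p 133, a 14.1-fold enrichment and replicate scores of 93.9 and 53.1. Its summit lay 608 bp upstream of the Cep170 TSS but 15 bp downstream of the TSS of Sdccag8, a gene of the opposite strand. It is the only Cep peak of the combined list with its summit more than 150 bp from a TSS of the Cep gene, and with each peak counted only for the nearest TSS (an alternative added after the data were seen) the Cep share was 25.7% beside 4.49%. The peak of Cep128 (chr12:91383981-91384923) had −log10 p 91.7, a 16.2-fold enrichment and scores of 67.8 and 29.0, with the summit 14 bp upstream of the nearest TSS. That start belongs to a transcript with a retained intron, and the summit lay 36 bp downstream of the 5′-most TSS.

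Cep164, the distal appendage gene needed for the start of cilium growth, was absent from the combined list. It had promoter peaks in both replicates, of score 15.9 at chr9:45828447-45828941 in replicate 1 and 14.3 in replicate 2, and the closest match to the palindrome near their centres had 5 mismatches. Cep83, which docks the mother centriole to membrane, Cep170b, the paralogue of Cep170, and Cep350, a microtubule anchor of the centriole, had no promoter peak in any list. Of the 8 genes of this group, 4 were thus bound in the combined list, 1 in both replicates only and 3 in none. Among the other protein-coding genes, 5.22% had a combined promoter peak and 16.2% a promoter peak in at least 1 list. The group joins distal appendages (1 of 3 in the combined list) with subdistal appendages and microtubule anchoring (3 of 5). The 4 include Cep170, whose summit lay nearer to the TSS of Sdccag8.

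Among 6 genes of the cilium and centriolar satellites, 3 had a combined promoter peak, beside 5.22% of the other protein-coding genes. The grouping was made with these results known. Cep162 encodes a microtubule-binding protein of transition zone assembly, and its peak (chr9:87254565-87256029) was 1465 bp wide, with −log10 p 220, a 16.4-fold enrichment and scores of 164 and 106. The summit lay in the 5′ untranslated region, 226 bp downstream of the 5′-most TSS and 22 bp upstream of another annotated start. Cep41, which acts in the glutamylation of ciliary tubulin, had −log10 p 134 and a 13.5-fold enrichment. Its scores were 120 and 36.8, and the summit lay 115 bp upstream of the TSS.

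Cep126, a centrosome and satellite gene, had a peak of score 13.7 in replicate 2 and none in replicate 1. The satellite genes Cep72 and Cep131 had none in any list.

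The highest scores of the family belonged to Cep112, which is little characterised. Its main peak (chr11:108424265-108425484) had −log10 p 237, a 19.8-fold enrichment and rank 136 of the combined list, with scores of 181 and 113, and its summit lay 38 bp upstream of the 5′-most TSS. A separate peak at an internal TSS, 161885 bp downstream in an intron (chr11:108586624-108587337), had −log10 p 67.4, a 19.4-fold enrichment and scores of 40.9 and 27.3. The score of the internal peak was lower in all 3 lists, while the enrichments of the pair were close to each other. Cep112 is the only Cep gene with more than 1 combined promoter peak.

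Cep295nl, a short gene with similarity to Cep295, had the highest enrichment of the family, 29.2-fold, in a peak (chr11:118341927-118343186) with −log10 p 201 and scores of 154 and 52.0. The summit lay 56 bp upstream of the TSS. Cep295 itself, which acts in the conversion of centrioles to centrosomes, had no promoter peak in any list. Cep57l1, the paralogue of Cep57, had a peak (chr10:41746328-41747166) with −log10 p 60.3, a 17.9-fold enrichment and scores of 44.2 and 13.9, located at an internal TSS 63233 bp downstream of the 5′-most and inside an intron. That start belongs to a transcript with a retained intron and no coding annotation, and the peak also met the promoter of BC048559, an antisense transcript, so that it cannot be assigned to either. Cep70, a partner of gamma-tubulin at the centrosome, Cep85l, the paralogue of Cep85, and Cep95, which is little characterised, had no promoter peak in any list.

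**Figure D2:**
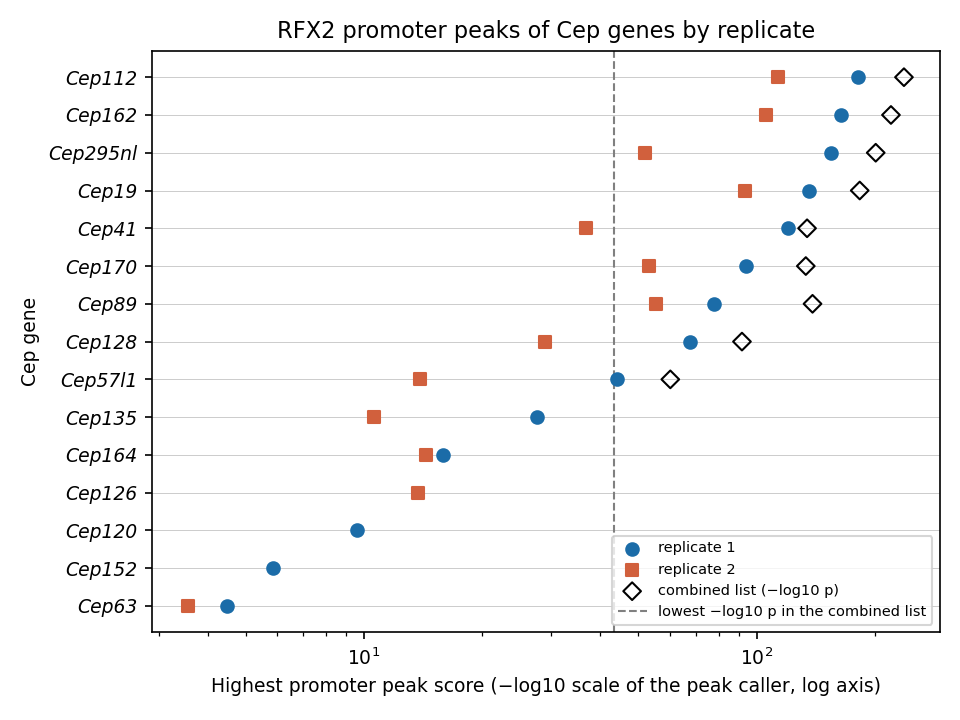
Highest promoter peak score on a −log10 scale (log axis) for 15 Cep genes with a promoter peak in at least 1 list, in replicate 1 (circles), replicate 2 (squares) and the combined list (diamonds), with a dashed line at the lowest combined −log10 p (43.2). The genes run from Cep112 (181 in replicate 1, 113 in replicate 2) to Cep63 (4.47 and 3.56), and the genes with a diamond are those in the combined list.

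None of the 12 genes of centriole assembly, duplication and length was bound in the combined list, where 5.22% of the other protein-coding genes were, so that a count of 0 of 12 is near the share over all genes. Cep135, a core protein of the cartwheel on which centrioles form, had the highest scores of the group, with a peak of score 27.5 at chr5:76588669-76588892 in replicate 1 and of score 10.6 in replicate 2, and a site with 3 mismatches to the palindrome in both. Cep63, a duplication factor, had low peaks of 4.47 and 3.56 at different internal TSSs, which did not overlap. Its partner Cep152, a scaffold for the kinase Plk4, scored 5.87 in replicate 1 only, and Cep120, a factor of centriole elongation, scored 9.57 in replicate 1 only. The other 8, Cep44, Cep57, Cep76, Cep78, Cep85, Cep97, Cep192 and Cep295, had no promoter peak in any list. Neither did the centrosome linker genes Cep68 and Cep250 or Cep55, which acts at the midbody in cytokinesis. The roles of the genes were assigned with these results known, and the count by role is a description.

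In all, 10 Cep genes had a combined promoter peak, 3 (Cep63, Cep135 and Cep164) had one in both replicates only, 2 in replicate 1 only, 1 in replicate 2 only and 19 in none. A promoter peak in at least 1 list was present for 45.7% of Cep genes and 16.2% of the other protein-coding genes. Over the 13 genes with a promoter peak in both replicates, the order of the scores was similar (Spearman's rho 0.890, a description over genes of the same 2 libraries). The 25 genes outside the combined list lay between 10880 bp (Cep135) and 1031047 bp (Cep85l) from the nearest combined peak, with a median of 199035 bp.

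The 11 Cep promoter peaks were compared with 992 other promoter peaks of the combined list, all of which were met by a peak in both replicates. The median −log10 p was 134 for Cep and 103 for the others, and the median enrichment was 16.4-fold and 15.0-fold. The Cep peaks spread over most of that range, since 91.0% of the other peaks had a lower −log10 p than Cep112 and 19.0% a lower one than Cep57l1. By enrichment the order differed, with 92.8% of other peaks below Cep295nl, 88.0% below Cep89 and 30.0% below Cep19, although Cep19 had the higher −log10 p of the last pair. In 7 of 11 Cep peaks the score was above the median of the other peaks, and in 7 of 11 the enrichment was. The median ratio of the replicate 1 score to the replicate 2 score was 1.60 at Cep peaks and 2.08 at the others. The scores of the replicates are not on a common scale, so that these ratios give no measure of binding strength.

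**Figure D3:**
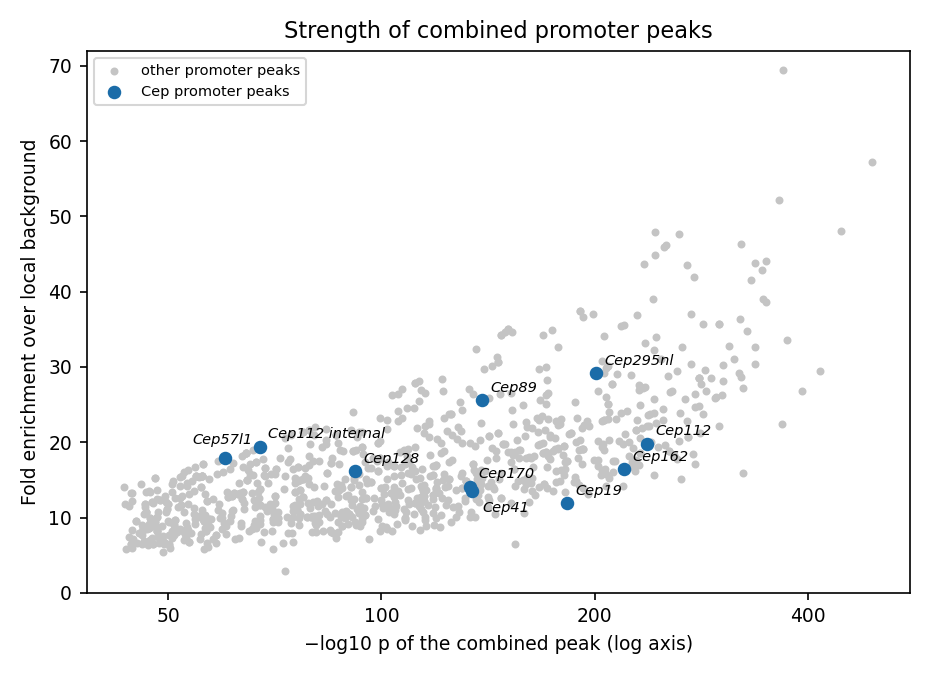
Fold enrichment against −log10 p (log axis) of 10 Cep promoter peaks (large points, named) and the 992 other promoter peaks of the combined list (small points). The named peaks run from Cep57l1 (60.3, 17.9-fold) to Cep112 (237, 19.8-fold), with Cep295nl highest on the enrichment axis at 29.2-fold.

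Summits of Cep peaks lay close to start sites. The median position was 38 bp upstream of the nearest TSS of the gene, and 31 bp upstream for the other promoter peaks. Within 150 bp of the TSS were 10 of 11 Cep summits (90.9%) and 73.8% of the others, Cep170 being the exception. The nearest of all annotated TSSs was used, and Cep genes have more of them (median 6 beside 3 per gene), which can shorten the distance. From the 5′-most TSS the summits of Cep162 and Cep128 lay 226 and 36 bp downstream, and those of the 2 peaks at internal TSSs much farther. The summit was upstream of the nearest TSS in 9 of 11, and 20 bp downstream of it at Cep19.

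**Figure D4:**
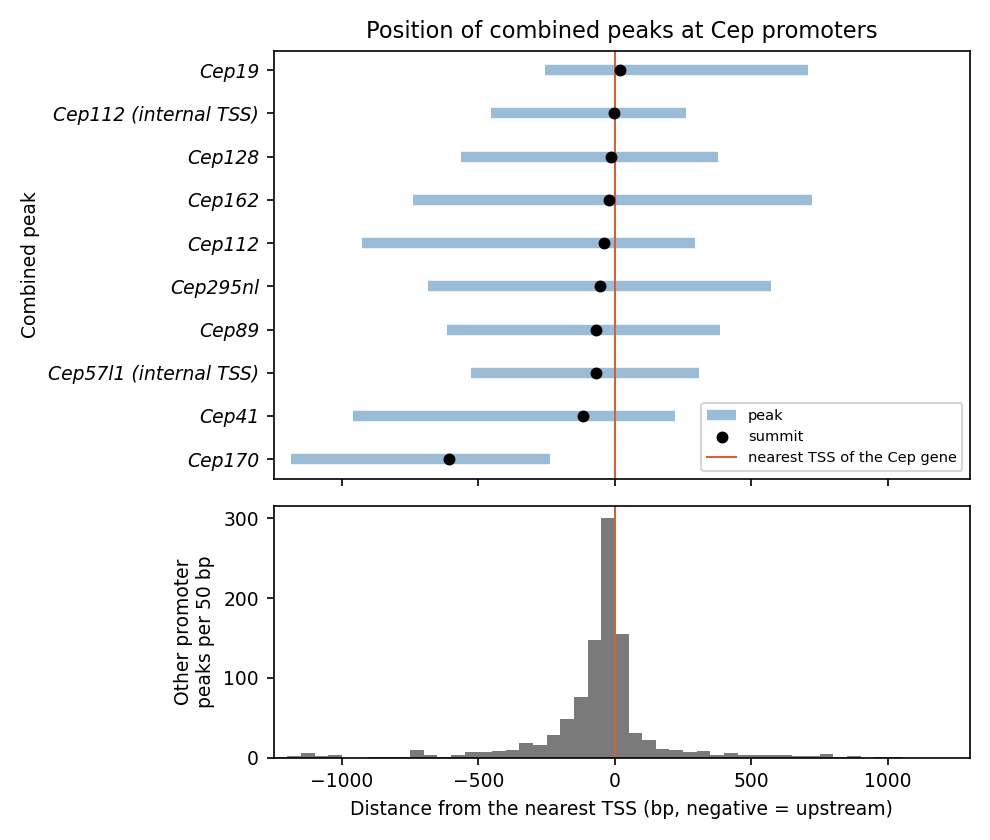
Upper panel, extent (bars) and summit (points) of 10 combined peaks at Cep promoters relative to the nearest TSS of the Cep gene (bp, negative values upstream). Lower panel, number of the other promoter peaks per 50 bp by summit position, of which 73.8% lie within 150 bp of the TSS, while Cep170 is the only gene in the upper panel beyond it.

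Of the 11 Cep peaks, 5 (45.5%) also met the promoter of another protein-coding gene, beside 156 of 992 (15.7%) of the other promoter peaks. Of these pairs, 4 are described here, each with the neighbour on the opposite strand. The TSSs nearest to the summit stood 60 bp apart for Cep19 and Pigx, 199 bp for Cep89 and Faap24, 204 bp for Cep128 and Tshr, and 593 bp for Cep170 and Sdccag8. The summit was nearer to the Cep TSS in the first 3 pairs, at 20, 69 and 14 bp, and 80, 130 and 190 bp from that of the neighbour. A peak does not tell which gene of such a pair, if any, responds to it.

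An X-box with at most 3 mismatches lay in the 200 bp around the summit in 8 of 11 Cep peaks (72.7%) and in 583 of 992 other promoter peaks (58.8%), and in the flanking windows of 0 of 11 and 8 of 992 (0.806%). At 2 or fewer mismatches the shares were 36.4% and 33.9%. The centre of the site lay a median of 6.5 bp from the summit in the 8 Cep peaks and 7 bp in the 583 others. For 7 of 8 Cep peaks it was within 11 bp, and for the main peak of Cep112 it was at 35 bp. The exact 95% interval of the Cep share was 39.0 to 94.0%, which holds the share of the others.

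**Figure D5:**
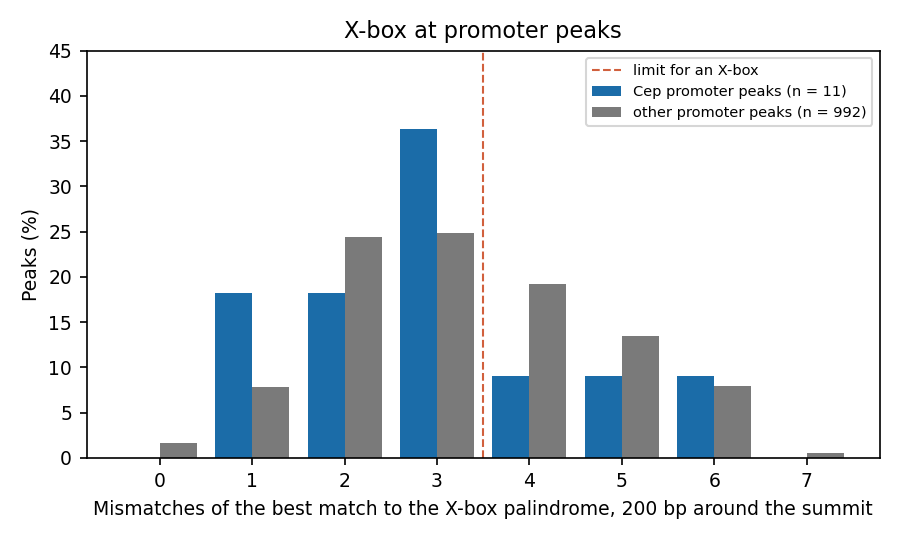
Share of promoter peaks (%) by the fewest mismatches to the X-box palindrome in 200 bp around the summit, for 11 Cep peaks and 992 others, with a dashed line after 3 mismatches. Cep peaks are most often at 3 mismatches (36.4%, beside 24.9% of the others), and 18.2% of them and 7.86% of the others are at 1.

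The letters were also searched without regard to peaks, in the 1500 bp around the 5′-most TSS of every protein-coding gene. A match with at most 3 mismatches on either strand occurred in 10 of 35 Cep promoters (28.6%) and 8.93% of the others, and one with at most 2 mismatches in 5 (14.3%) and 2.25%. Among genes with a combined promoter peak, 7 of 10 Cep promoters and 47.5% of the others held a match with at most 3 mismatches. Among genes without one, 3 of 25 Cep promoters (12%) and 6.81% of the others did. Those 3 were Cep135, Cep44 and Cep68, of which Cep135 had peaks in the replicate lists. At 2 or fewer mismatches no Cep promoter outside the combined list held a match (0 of 25, beside 1.03% of the others), whereas Cep112, Cep295nl, Cep162, Cep19 and Cep41 did. A match is a description of the letters and not a measured site.

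Outside promoters, most peaks within Cep genes had low scores. The replicate 1 list held 34 such peaks (median score 4.0) in 13 Cep genes, 37.1% of the family beside 27.9% of the other protein-coding genes. The replicate 2 list held 23 (median score 4.14) in 14 Cep genes, 40.0% beside 21%. Cep genes are longer, with a median of 41.9 kb beside 17.4 kb, and longer genes offer more sequence to a peak. Peaks that overlapped between replicates lay in 3 Cep genes, 8.57% beside 9.20% of the others, which is near the share over all genes. Among these were a peak in an intron of Cep112 (chr11:108857962-108858334, scores 15.3 and 5.08) and one in an exon of Cep57l1 (chr10:41719644-41719924, scores 15.0 and 6.03). There were 10 Cep genes with no peak in any list at the promoter or in the gene body, namely Cep44, Cep57, Cep72, Cep76, Cep95, Cep97, Cep131, Cep170b, Cep250 and Cep295. The matching share of the other protein-coding genes is not given, so this count only names the genes and describes no trait of the family.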

How the data were processed

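Chromatin of WT testis was precipitated with an RFX2 antibody by the authors in 2 replicates. The 2 inputs entered only through peak calling, and the labels do not say whether the replicates came from separate mice. The submitters' processing notes name CASAVA 1.8.2, Bowtie 0.12.7 and MACS2 2.0.10.20130520. Reads with several locations were discarded, so repeated sequence is under-represented. Replicate 2 was sequenced again, and from this contaminated run the authors took out all reads with a human match, which may include mouse reads of conserved sequence. The methods describe calls per replicate followed by a reproducibility filter between them, without saying which of them the lists hold. In the deposited replicate lists each peak has a −log10 value, of a p-value or a q-value (not named). The combined list deposited by the authors holds −log10 p, −log10 q (not reported here), the summit, the fold enrichment as a ratio to local background and a score, which is 10 times −log10 p without its decimals in 100% of peaks. It is attached to replicate 2 in the archive, but its peaks are named "all" with numbers up to 29491, and it was taken to come from pooled reads.

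The lists use GRCm38 (Ensembl release 70), and genes were taken from GENCODE mouse release 21 on GRCm38 patch 6, so TSSs can differ from those of the authors. All columns of per-sample values were used. Overlaps, distances and letters were computed with Python 3.11.15, pandas 2.3.3 and pysam 0.24.0, and checked on simulated data. Where a list has no summit, the peak centre was used. Exact (Clopper-Pearson) intervals cover counting error only, and genes sharing a promoter are not independent. No test was run between Cep and other genes. Every Cep gene was counted, but the values of 1 are not reported here. Under the naming rule, coordinates were given for the 5 highest and 3 lowest combined peaks and for peaks shared with another gene or at an internal TSS, for replicate peaks of Cep135 and Cep164 and gene-body peaks chosen after their values were seen, and for printed sites. The genes, role groups and comparison lists were chosen with earlier results of these data known. Alternatives covered the TSS set, the promoter window, the list and its threshold, and the search for the palindrome.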

Additional observations from a re-analysis of the deposited data

How the results depend on the processing

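Of 38 alternative values, 36 were labelled as unchanged and 2 as moved. Shares were judged by their exact intervals, and positions and enrichments by the standard deviation over the Cep peaks. For positions this was 177 bp, too wide to mark a shift from −38 to −97 bp. The count in both replicates was judged by a fixed limit on its ratio to the reported count, which rests on no measured spread. Its 8 alternatives lay between 11 and 15 genes beside 13, and all were labelled as unchanged. Both moved values were for the share of Cep peaks with an X-box, 72.7% as reported. It was 36.4% with at most 2 mismatches, since 4 of the 8 sites have 3, and 36.4% with the 200 bp placed around the peak centre in place of the summit, the cause of which was not tested. In the other searches and with other sets of peaks that share lay between 62.5 and 81.8%, the lowest in the upper 50% of the list by score. The share of Cep genes with a combined promoter peak ran from 22.9% (upper 50% of the list by score, Cep57l1 among those lost, beside 3.39% of other genes) to 42.9%, and its ratio to the other genes from 3.08 to 6.74. Leaving out a replicate meant using the full list of the other one, which is much longer than the combined list. The replicate 2 list alone gave 40.0% (beside 11.2% of other genes, ratio 3.56) and 14 genes. The replicate 1 list alone gave 42.9% (beside 13.9%, ratio 3.08) and 15 genes. These stand in place of the 28.6% of the combined list and the 13 genes of both lists. The count in both replicates was 11 at its lowest, with the 5′-most TSS only. Summit positions ran from −97 (peak centres) to −38 bp and the median enrichment from 16.2 to 16.4. No paired analysis was possible because the results come from no test and the inputs have no peak list of their own. With 35 genes and 11 peaks the intervals are wide, and read depth is unknown.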
